A study of Homo sapiens with 22 samples.

Results

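The 8 names of abundant structural noncoding RNAs were followed: RN7SK, RN7SL1, RN7SL2, RMRP, RPPH1, SNORD3A, MALAT1 and NEAT1. They were chosen by gene name, and held 11 of the 60675 entries of the deposited table, since 4 of the names (RN7SL1, RMRP, RPPH1 and MALAT1) stood on more than 1 entry. The second MALAT1 entry, whose 95 bases lie inside the 10434 bases of the long one, was left out by the rule. Of the 11 entries, 10 had counts and 1, the entry named RN7SL2, was listed at 0 in all 22 libraries. HT1080 is a human fibrosarcoma cell line. The 22 RNA-seq libraries were 4 replicates of unmodified, untreated cells (WT), 4 of each of 3 untreated mutant lines (KDAC6H216A, KDAC6H611A, KDAC8H143A), and 3 replicates of unmodified cells for each inhibitor, 1 µM Tubastatin A or 5 µM PCI-34051, over 2 days. KDAC6 and KDAC8 (HDAC6 and HDAC8) are lysine deacetylases, and each line carries a histidine-to-alanine change made with CRISPR/Cas9 in 1 catalytic domain: the first domain of KDAC6, the second domain of KDAC6, or KDAC8. The mutant lines were raised from single colonies and also carry silent marker changes, KDAC6H216A was a pool of 3 such lines, and KDAC8H143A holds an unintended base in an intron, per the study's own account of the lines. Tubastatin A and PCI-34051 are inhibitors reported for KDAC6 and KDAC8, respectively. The comparisons ask how loss of 1 deacetylase activity, or its inhibition, goes with the level of each RNA.

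These RNAs work as parts of RNA-protein machines rather than as messages. 7SK RNA, from RN7SK, holds the elongation kinase P-TEFb inactive together with HEXIM, LARP7 and MEPCE. 7SL RNA, from RN7SL1 and RN7SL2, is the scaffold of the signal recognition particle, which brings ribosomes making secreted proteins to the endoplasmic reticulum. RMRP and RPPH1 are the RNAs of RNase MRP, which processes ribosomal RNA precursors, and RNase P, which trims the 5′ ends of tRNA precursors, and both enzymes use many of the same proteins. U3 RNA, from SNORD3A, is a box C/D RNA of the nucleolus that guides early cuts of the ribosomal RNA precursor. MALAT1 and NEAT1 are long nuclear RNAs of nuclear speckles and paraspeckles, and NEAT1 is the scaffold of the latter. RNA polymerase III makes 7SK, 7SL, RMRP and RPPH1, and polymerase II makes U3, MALAT1 and NEAT1.

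U3 and the start of 7SK are shown because both carry short letters known from their function. The first is the RefSeq U3 of 217 bases, at chr17:19188016-19188232 on the plus strand of GRCh38, with TGATGA (box C letters, from base 158) and GTCTGA (holding box D, from base 207) in capitals. The second is the first 100 bases of 7SK, from chr6:52995620-52995719 on the plus strand, with GATC in capitals from bases 13, 42 and 64. GATC is known from the hairpin bound by HEXIM, but which of these copies lie in that hairpin was not examined.
SNORD3A: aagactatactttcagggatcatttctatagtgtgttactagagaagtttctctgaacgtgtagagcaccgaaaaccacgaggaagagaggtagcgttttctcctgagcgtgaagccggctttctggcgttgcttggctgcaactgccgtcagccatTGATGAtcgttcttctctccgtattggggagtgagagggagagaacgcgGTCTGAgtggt
RN7SK: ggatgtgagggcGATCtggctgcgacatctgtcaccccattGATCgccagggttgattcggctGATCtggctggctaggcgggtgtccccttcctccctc
Both were read from GENCODE release 44 transcripts, on the strand of the RNA. Among GENCODE transcripts long enough, 7.47% held TGATGA and 5.02% GTCTGA in their first 217 bases, and 22.2% held GATC in their first 100 bases. A match is a description of the letters only.

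Where the names stood on several entries, the entries are told apart here by their identifiers. RN7SK (ENSG00000202198, named 7SK in GENCODE 44) has 331 bases. RMRP had a current entry (ENSG00000277027, chr9:35657754-35658017, minus strand, 264 bases) and an entry whose identifier is retired (ENSG00000269900). RPPH1 had a short entry (ENSG00000277209, chr14:20343075-20343407, minus strand, 333 bases) and a long one (ENSG00000259001, chr14:20343048-20343685, minus strand, 638 bases, a lncRNA without that name in GENCODE 44), and all bases of the short entry lie inside the long one, in its 3′ part, from base 279. RN7SL1 had a current entry (ENSG00000276168) and a retired one (ENSG00000283029). The retired identifiers are absent from GENCODE 44, so their bases were not compared. The identifier that GENCODE gives to RN7SL2 (ENSG00000274012) is named Metazoa_SRP in the table. It had up to 544746 counts, and its values are given as RN7SL2 by identifier, outside the 11 entries. SNORD3A (ENSG00000263934, chr17:19188016-19188714, plus strand) is a model of 699 bases in GENCODE. MALAT1 (ENSG00000251562, chr11:65497640-65508073, plus strand) and NEAT1 (ENSG00000245532, chr11:65422774-65445540, plus strand) lie on the same arm of chromosome 11. NEAT1 has models from 512 to 22743 bases, so its short and long forms were not told apart by a count per gene. Where RSEM divided reads between near-identical or overlapping entries, the values of single entries are uncertain, and sums are given beside them. RSEM was run with default parameters per the study's methods, and its default does not use strand, so reads antisense to MALAT1 cannot be told apart from it.

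The libraries differed in more than their group. Total counts ran from 5248960 to 29862658, with 5248960 to 8998521 in WT cells and 24315844 to 29862658 in the inhibitor libraries. Mitochondrial rRNA took 20.8% to 23.9% of the counts in WT cells but at most 0.0259% in KDAC8H143A and 0.00541% in both inhibitor groups. It was also low in KDAC6H216A replicate 1 (0.195%) and KDAC6H611A replicate 4 (0.173%). Mitochondrial mRNA went the other way, from 1.14% to 1.27% in WT cells to 6.43% to 14.8% in KDAC8H143A and 2.57% to 4.72% with the inhibitors. The protein-coding share was 60.6% to 65.1% in WT cells, 83.0% to 85.3% in KDAC8H143A and 88.4% to 90.2% with the inhibitors. Depth and these shares therefore move with the KDAC8H143A line and the inhibitors, and their part in the results below cannot be told apart from the group. HT1080 markers of mesenchymal type were present in every library (7 of 7, from VIM at 2083 to 4681 CPM to TIMP1 at 26.9 to 79.5 CPM). Of 5 epithelial, 3 blood and 2 endothelial markers none had a median of 1 CPM, and the highest single value was 1.92 CPM (CDH5).

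The 11 entries took 8.49% ± 0.762 (SD, n = 4) of all counts in WT cells, 9.81% ± 4.09 in KDAC6H216A and 10.7% ± 0.995 in KDAC6H611A. The share was 7.85% ± 0.427 in KDAC8H143A, 6.75% ± 0.485 under Tubastatin A and 6.33% ± 0.472 under PCI-34051 (n = 3 each for the inhibitors). KDAC6H216A replicate 1 alone had 15.9%, against 7.36% to 8.64% in the other replicates of that line. The size of these shares depended on what was counted as the whole: without mitochondrial rRNA in the total, the WT share was 10.9%.

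Per length, the small RNAs stood far above the long ones in WT cells. On the scale of CPM per kb of the longest model, RN7SL1 had 118708 ± 14680, RN7SK 74882 ± 2517, RMRP (current) 27580 ± 2299, RPPH1 (short) 20650 ± 3628, SNORD3A 15889 ± 3454, MALAT1 291 ± 47.9 and NEAT1 64.8 ± 8.75 (SD, n = 4). With the 217 bases of RefSeq U3 in place of the GENCODE model, SNORD3A came to 51182 ± 11126. With the shortest NEAT1 model, NEAT1 came to 2877 ± 389.

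**Figure D1:**
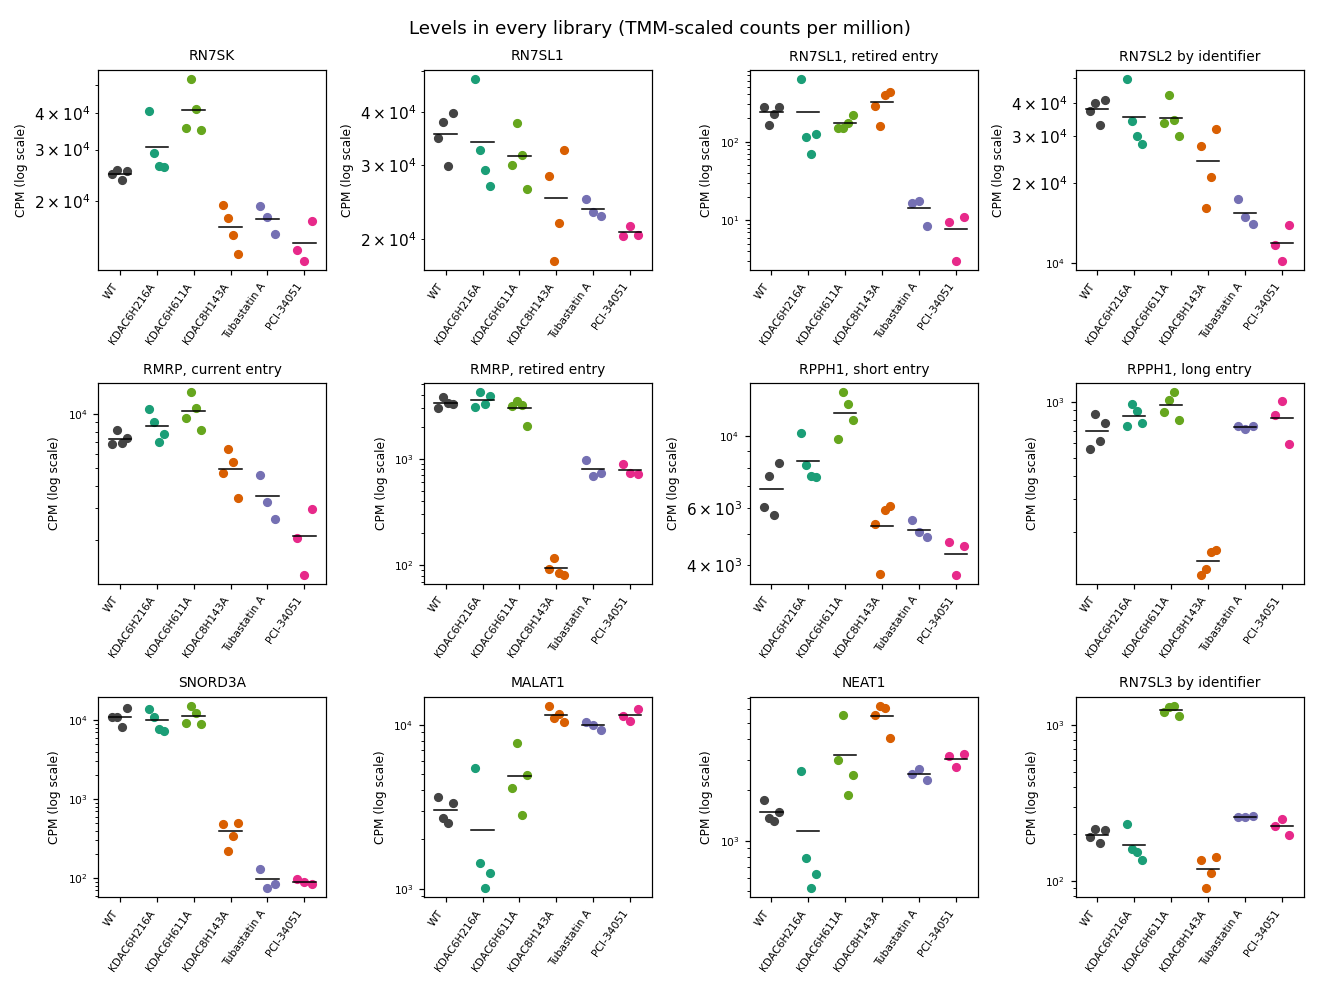
TMM-scaled CPM (log axis) of 10 entries with counts, RN7SL2 by identifier and RN7SL3 by identifier, with 1 point per library and a bar at the mean of each of the 6 groups. SNORD3A lies between 7276 and 15216 CPM in the WT and both KDAC6 groups and at or below 506 CPM in the other 3 groups.

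SNORD3A had the largest log2 fold change of the 10 entries with counts in both inhibitor comparisons. It stood at 11086, 11041, 8194 and 14106 CPM in the 4 WT libraries. In KDAC8H143A it was 491, 221, 346 and 506 CPM, with Tubastatin A 131, 74.5 and 84.2 CPM, and with PCI-34051 97.1, 89.6 and 84.9 CPM. The 3 groups lay wholly below WT. SNORD3A fell 27.4-fold in KDAC8H143A (log2 fold change −4.78 ± 0.29 SE, edgeR adjusted p = 3.56e-07), 125-fold with Tubastatin A (−6.96 ± 0.21, adjusted p = 1.42e-15) and 132-fold with PCI-34051 (−7.04 ± 0.16, adjusted p = 1.09e-15). With all 4 libraries neither KDAC6 line showed a call: SNORD3A was 13764, 10932, 7669 and 7276 CPM in KDAC6H216A and 9336, 15216, 12233 and 9032 CPM in KDAC6H611A, both overlapping the WT range. Without KDAC6H216A replicate 1, SNORD3A was 1.42-fold lower in that line (edgeR adjusted p = 7.29e-03), in a fit that called 26.1% of all genes. SNORD3A was lower still with PCI-34051 than in KDAC8H143A (log2 fold change −2.07 ± 0.26, adjusted p = 5.32e-05), and the ranges did not overlap.

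The other U3 genes that could be tested, SNORD3B-1 and SNORD3B-2, fell in the same 3 comparisons, while SNORD3C and SNORD3D had too few counts or none. SNORD3B-1 and SNORD3B-2, whose U3 parts each differ from that of SNORD3A by 1 substitution (99.5% identical), stood at 207 ± 39.6 and 209 ± 39.0 CPM in WT cells. Their log2 fold changes were −3.76 and −3.24 in KDAC8H143A, −4.66 and −4.15 with Tubastatin A, and −4.61 and −4.15 with PCI-34051 (edgeR adjusted p from 6.24e-16 to 2.03e-07). With all U3 entries summed, the falls were 26.0-fold, 106-fold and 110-fold. SNORD3A held 96.4% ± 0.102 of U3 counts in WT cells, 90.9% ± 2.79 in KDAC8H143A, 81.1% ± 3.84 under Tubastatin A and 80.6% ± 2.70 under PCI-34051. In KDAC6H216A SNORD3B-1 and SNORD3B-2 did not pass edgeR's test (adjusted p = 0.804 and 0.816). Without replicate 1 of that line they were 1.32-fold and 1.31-fold lower (adjusted p = 6.12e-03 and 6.43e-03).

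SNORD3A was not low in the KDAC6 libraries with little mitochondrial rRNA. KDAC6H216A replicate 1 had 13764 CPM and KDAC6H611A replicate 4 had 9032 CPM, at 0.195% and 0.173% mitochondrial rRNA. Both levels lay within the WT range of 8194 to 14106 CPM. Those shares were above every KDAC8H143A library (at most 0.0259%) and every inhibitor library (at most 0.00541%). Mitochondrial mRNA (1.20% and 0.680%) was below every library of those groups. The libraries thus do not match those groups, and the part of library make-up in SNORD3A was not tested. The retired RMRP entry in KDAC6H216A replicate 1 and KDAC6H611A replicate 4 (3072 and 2044 CPM) was likewise above every KDAC8H143A and inhibitor library. MALAT1 in these libraries (5470 and 4928 CPM) lay above the WT range. KDAC6H611A replicates 1 and 2 were also above that range for MALAT1 (4129 and 7726 CPM), at 24.5% and 38.0% mitochondrial rRNA.

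**Figure D2:**
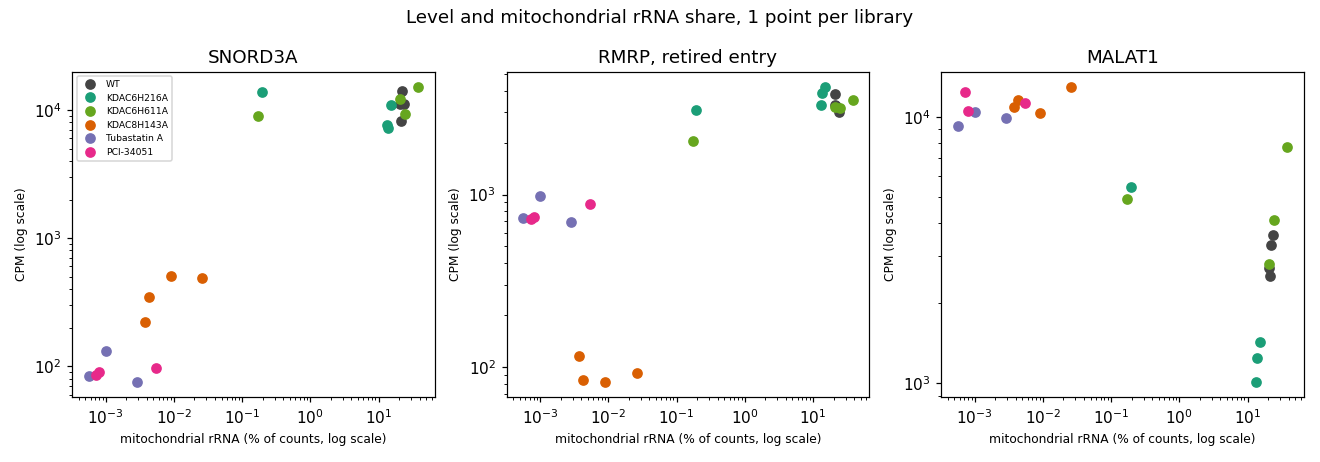
CPM (log axis) of SNORD3A, the retired RMRP entry and MALAT1 against the share of counts in mitochondrial rRNA (percent, log axis), 1 point per library, colours by group. The KDAC6 libraries with 0.195% and 0.173% sit at the SNORD3A level of WT cells. Their mitochondrial rRNA shares are above those of every KDAC8H143A and inhibitor library.

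RN7SK was lower in the KDAC8H143A and inhibitor groups. It had 24733, 25482, 23632 and 25298 CPM in WT cells, a narrow range. KDAC8H143A had 19362, 17451, 15197 and 13118 CPM, all below WT (1.47-fold lower, log2 fold change −0.56 ± 0.15, adjusted p = 5.08e-03). This call was lost with the total count as the scale (−0.27, adjusted p = 0.173) and with at least 10 counts required in every library (−0.49, adjusted p = 0.0184). It was also lost without WT replicate 1, 2 or 4 or KDAC8H143A replicate 4 (adjusted p = 0.0104, 0.0138, 0.0141 and 0.0116), with log2 fold changes of −0.51 or beyond. With Tubastatin A RN7SK was 19211, 17509 and 15345 CPM (1.55-fold lower, adjusted p = 4.14e-08), and with PCI-34051 13478, 12371 and 17028 CPM (1.86-fold lower, adjusted p = 3.64e-08). In KDAC6H611A it was 35693, 52625, 41439 and 34973 CPM, all above WT, but the difference missed the threshold of 0.01 (log2 fold change 0.77 ± 0.25, adjusted p = 0.0441, and 6.05e-03 without KDAC6H611A replicate 2). KDAC6H216A had 40741, 29196, 26330 and 26102 CPM, also all above WT (0.24 ± 0.20, adjusted p = 0.642).

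Among proteins of the 7SK particle and P-TEFb, counts of changed genes went both ways. Of 7 listed and tested, 2 rose and 2 fell in KDAC8H143A, where 31.6% of all genes tested were called higher and 26.9% lower. With Tubastatin A 0 rose and 3 fell (all genes 29.3% and 28.6%), and with PCI-34051 2 rose and 3 fell (all genes 25.5% and 25.6%). These counts, and those of the other lists below, are to be read against these shares. The median log2 fold change of the list was 0.12, −0.10 and −0.19, against 0.08, −0.0030 and −0.0071 over all genes. HEXIM1, which inhibits P-TEFb, rose in KDAC8H143A (log2 fold change 1.37 ± 0.16, adjusted p = 1.91e-05) and in KDAC6H611A (0.46 ± 0.11, adjusted p = 8.86e-03). LARP7, which binds the 3′ end of 7SK, fell in KDAC8H143A (−1.05 ± 0.11, adjusted p = 8.83e-06). It also fell with Tubastatin A (−0.59 ± 0.09, adjusted p = 1.08e-05) and PCI-34051 (−0.66 ± 0.08, adjusted p = 1.50e-06). MEPCE, which caps 7SK, fell with Tubastatin A (−0.77 ± 0.07, adjusted p = 4.71e-09) and PCI-34051 (−0.45 ± 0.07, adjusted p = 1.73e-05).

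RN7SL1 and RN7SL2 by identifier were lower with both inhibitors. RN7SL1 had 34654, 37852, 29716 and 39754 CPM in WT cells, 24867, 23183 and 22688 CPM with Tubastatin A, and 20341, 21419 and 20429 CPM with PCI-34051. Both groups were wholly below WT, 1.63-fold (adjusted p = 8.82e-08) and 1.84-fold (adjusted p = 8.86e-09). RN7SL2 by identifier fell more, from 37499, 40161, 33172 and 41178 CPM in WT cells to 17404, 14870 and 14059 CPM with Tubastatin A (2.67-fold, adjusted p = 6.42e-12) and 11675, 10158 and 13922 CPM with PCI-34051 (3.42-fold, adjusted p = 2.80e-11). In KDAC8H143A RN7SL1 had 28155, 17688, 21803 and 32534 CPM, 3 of 4 below the WT range, and missed the threshold (−0.45 ± 0.20, adjusted p = 0.0619). RN7SL2 by identifier ran from 16080 to 32005 CPM there, below WT but short of the threshold (−0.60 ± 0.21, adjusted p = 0.0221). With all 7SL entries summed, the fall was 2.04-fold with Tubastatin A and 2.41-fold with PCI-34051, and the value in KDAC8H143A was 1.44-fold lower (adjusted p = 0.0416).

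In the KDAC6 lines RN7SL1 had 47981, 32421, 29108 and 26661 CPM (KDAC6H216A) and 29928, 37758, 31658 and 26248 CPM (KDAC6H611A), both overlapping the WT range, and RN7SL2 by identifier had 49506, 34343, 30123 and 28062 CPM and 33609, 43032, 34525 and 30036 CPM. Neither passed edgeR's test in KDAC6H216A (adjusted p = 0.850 and 0.789). Without replicate 1 of that line they were 1.33-fold and 1.36-fold lower (adjusted p = 7.63e-04 and 1.98e-04), in a fit that called 26.1% of all genes.

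The retired RN7SL1 entry was at a far lower level than the current one. It had 280, 164, 223 and 280 CPM in WT cells, 16.7, 17.3 and 8.47 CPM with Tubastatin A, and 9.37, 2.99 and 10.9 CPM with PCI-34051. It fell by 4.17 and 5.05 on the log2 scale (adjusted p = 1.17e-12 and 9.53e-11), while in KDAC8H143A it was 286, 157, 392 and 433 CPM, reaching above the WT range, and passed the test only without replicate 2 of that line (log2 fold change 0.64, adjusted p = 7.95e-03).

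The third 7SL gene, RN7SL3 by identifier, stood apart in the KDAC6H611A line. It had 1208, 1318, 1334 and 1154 CPM there and 192, 215, 175 and 211 CPM in WT cells. It rose 6.45-fold (log2 fold change 2.69 ± 0.13, adjusted p = 7.62e-08), and its range did not overlap with that of any other group, the highest of which reached 261 CPM. Against KDAC6H216A it was 7.73-fold higher (adjusted p = 2.96e-05). With Tubastatin A it had 259, 258 and 261 CPM, all above WT (1.21-fold higher, adjusted p = 5.16e-04), where RN7SL1 and RN7SL2 by identifier fell. With PCI-34051 it had 225, 249 and 196 CPM and did not pass the test (log2 fold change 0.07 ± 0.08, adjusted p = 0.447), and in KDAC8H143A it was 1.59-fold lower (adjusted p = 1.61e-03). RN7SL1 and RN7SL2 by identifier did not pass the test in KDAC6H611A (1.11-fold and 1.05-fold lower, adjusted p = 0.736 and 0.874). In KDAC6H216A RN7SL3 by identifier did not pass edgeR's test (adjusted p = 0.564), but was 1.45-fold lower without replicate 1 of that line (adjusted p = 1.02e-05).

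Most proteins of the signal recognition particle and its receptor were lower in KDAC8H143A. Of 8 listed, 0 rose and 7 fell, where 26.9% of all genes were called lower (median log2 fold change −1.12, all genes tested 0.08), with SRP19 at −1.66 ± 0.12 (adjusted p = 1.11e-06) and SRP9 at −1.51 ± 0.18 (adjusted p = 2.31e-05). With Tubastatin A 3 rose and 3 fell, and with PCI-34051 2 rose and 3 fell. SRP68 rose with both inhibitors (0.41 ± 0.05 and 0.42 ± 0.06, adjusted p = 3.56e-07 and 6.72e-06). SRP19 fell with both (−0.52 ± 0.08 and −0.60 ± 0.08, adjusted p = 1.80e-05 and 4.66e-06). In neither KDAC6 line did any of the 8 change by edgeR's test.

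The RMRP entries fell by unlike amounts. The current entry had 6788, 8113, 6875 and 7348 CPM in WT cells, 4722, 6400, 5385 and 3394 CPM in KDAC8H143A, 4612, 3247 and 2614 CPM with Tubastatin A, and 2038, 1276 and 2964 CPM with PCI-34051. All 3 groups were below the WT range. It fell 2.26-fold with Tubastatin A (adjusted p = 7.16e-08) and 3.72-fold with PCI-34051 (adjusted p = 8.29e-08), and missed the threshold in KDAC8H143A (1.42-fold lower, adjusted p = 0.0199). There it passed without KDAC8H143A replicate 2 (adjusted p = 5.32e-04), with DESeq2 (1.22e-03), without mitochondrial rRNA (7.41e-03), with no filter on low counts (9.85e-03) and with the replicate number as a block (5.96e-03). The retired entry had 3006, 3823, 3309 and 3256 CPM in WT cells and 92.5, 116, 84.5 and 81.5 CPM in KDAC8H143A, 34.5-fold lower (log2 fold change −5.11 ± 0.15, adjusted p = 2.02e-09). It fell 4.53-fold with Tubastatin A, to 977, 692 and 731 CPM, and 4.58-fold with PCI-34051, to 886, 742 and 724 CPM (adjusted p = 2.74e-13 and 2.14e-13). The retired entry held 31.5% ± 0.923 of RMRP counts in WT cells, 1.90% ± 0.335 in KDAC8H143A, 19.0% ± 2.51 under Tubastatin A and 28.9% ± 8.65 under PCI-34051. In KDAC6H216A the current entry had 10740, 9009, 6983 and 7729 CPM and the retired one 3072, 4217, 3283 and 3853 CPM. In KDAC6H611A they had 9524, 13231, 10847 and 8179 CPM, all above WT (adjusted p = 0.0737), and 3156, 3517, 3196 and 2044 CPM. Neither entry passed the test in either KDAC6 line. Summed over both entries, RMRP fell 2.03-fold in KDAC8H143A (adjusted p = 2.44e-04), 2.68-fold with Tubastatin A and 3.95-fold with PCI-34051.

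RPPH1 was lower with both inhibitors in its short entry and lower in KDAC8H143A in its long one. The short entry had 6044, 7516, 5697 and 8250 CPM in WT cells, 5523, 5050 and 4898 CPM with Tubastatin A (1.44-fold lower, adjusted p = 3.43e-05) and 4704, 3743 and 4573 CPM with PCI-34051 (1.70-fold lower, adjusted p = 5.52e-06). The Tubastatin A call was lost with the total count as the scale (log2 fold change −0.18, adjusted p = 0.0726). KDAC8H143A had 5377, 3768, 5930 and 6075 CPM, below the WT range or at its lower end (adjusted p = 0.116). KDAC6H216A had 10246, 8156, 7538 and 7460 CPM (adjusted p = 0.654). In KDAC6H611A the short entry had 9798, 13633, 12557 and 11183 CPM, all above WT, yet missed the threshold (1.75-fold higher, adjusted p = 0.0138, and 1.91e-03 without replicate 2 of that line). The long entry had 555, 862, 619 and 765 CPM in WT cells and fell 4.81-fold in KDAC8H143A, to 118, 127, 156 and 161 CPM (adjusted p = 7.32e-07). With Tubastatin A it had 741, 717 and 744 CPM, and with PCI-34051 844, 1011 and 593 CPM. It did not pass the test with either inhibitor (adjusted p = 0.655 and 0.466), but with the total count as the scale it was higher with both (log2 fold change 0.31 and 0.51, adjusted p = 4.02e-03 and 2.81e-03). It held 9.24% ± 0.945 of RPPH1 counts in WT cells, 2.64% ± 0.457 in KDAC8H143A and 16.0% ± 4.94 with PCI-34051. Summed over both entries, RPPH1 in KDAC8H143A was 1.35-fold lower than in WT cells (adjusted p = 0.0444).

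**Figure D3:**
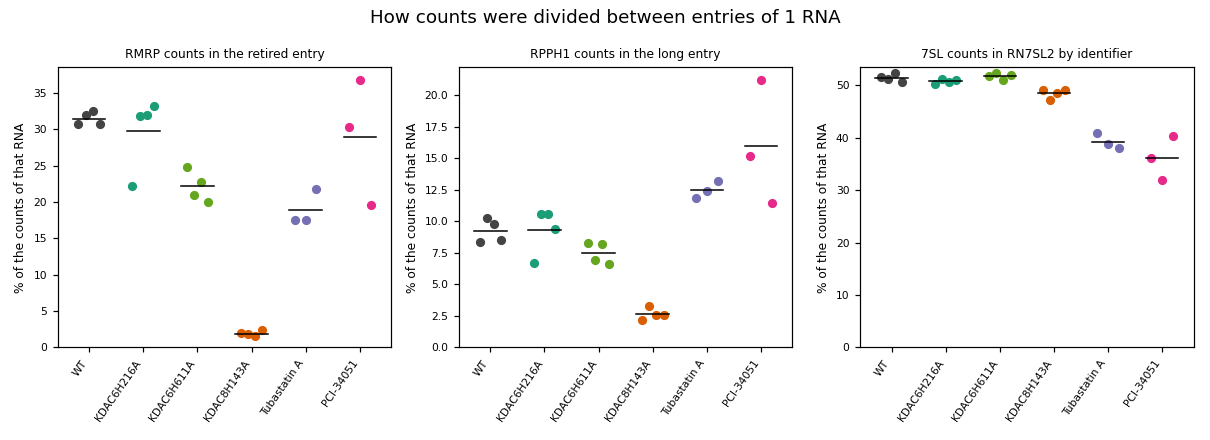
Percent of the counts of RMRP in its retired entry, of RPPH1 in its long entry and of 7SL in RN7SL2 by identifier, 1 point per library with a bar at the group mean. The KDAC8H143A libraries sit lowest for RMRP (1.55% to 2.34%) and RPPH1 (2.15% to 3.25%).

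Of 11 listed proteins of RNase P and RNase MRP, 10 were tested, and 1 rose, 6 fell and 3 did not pass the test in KDAC8H143A, where 58.5% of all genes were called and 26.9% were lower. With each inhibitor 0 rose and 3 fell. The median log2 fold change was −0.72 in KDAC8H143A, −0.17 under Tubastatin A and −0.18 under PCI-34051. RPP40 and RPP30 fell in KDAC8H143A (log2 fold change −1.24 ± 0.23 and −1.08 ± 0.16, adjusted p = 4.64e-04 and 7.91e-05). POP7 and POP1 fell with Tubastatin A (−0.84 ± 0.09 and −0.55 ± 0.06) and with PCI-34051 (−1.03 ± 0.12 and −0.53 ± 0.07).

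MALAT1 and NEAT1 were higher in KDAC8H143A and with both inhibitors. MALAT1 had 3601, 2717, 2535 and 3312 CPM in WT cells, 13034, 10922, 11570 and 10409 CPM in KDAC8H143A, 10446, 9969 and 9305 CPM with Tubastatin A, and 11317, 10556 and 12405 CPM with PCI-34051. All 3 groups lay above WT. MALAT1 rose 3.90-fold (log2 fold change 1.96 ± 0.15, adjusted p = 1.38e-06), 3.00-fold (1.58 ± 0.09, adjusted p = 2.99e-11) and 3.49-fold (1.80 ± 0.10, adjusted p = 1.11e-10). NEAT1 had 1752, 1367, 1300 and 1472 CPM in WT cells, and rose to 5535, 6291, 6134 and 4046 CPM in KDAC8H143A (3.86-fold, adjusted p = 2.08e-06). With Tubastatin A it was 2487, 2643 and 2298 CPM (1.55-fold higher, adjusted p = 2.14e-06), and with PCI-34051 3165, 2716 and 3258 CPM (1.92-fold higher, adjusted p = 1.63e-07). NEAT1 was higher in KDAC8H143A than with PCI-34051 (log2 fold change −0.81 ± 0.17 for PCI-34051 against KDAC8H143A, adjusted p = 1.26e-03), while MALAT1 did not pass the test (0.03 ± 0.12, adjusted p = 0.831), with a sign that turned under other scalings.

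Both long RNAs were uneven in the KDAC6 lines. In KDAC6H216A MALAT1 had 5470 CPM in replicate 1 and 1433, 1008 and 1247 CPM in replicates 2 to 4, all 3 below the WT range. NEAT1 had 2591 CPM in replicate 1 and 788, 523 and 639 CPM in the others, also below WT. With all 4 libraries neither passed the test (adjusted p = 0.753 for both). Without replicate 1, MALAT1 was 2.73-fold lower (adjusted p = 3.44e-08) and NEAT1 2.50-fold lower (adjusted p = 8.04e-08). In KDAC6H611A MALAT1 had 4129, 7726, 2806 and 4928 CPM (adjusted p = 0.0887), and NEAT1 had 3000, 5552, 1851 and 2445 CPM, all above WT but short of the threshold (1.17 ± 0.30, adjusted p = 0.0151). Without KDAC6H611A replicate 2 or 3 NEAT1 passed (log2 fold change 0.72 and 1.37, adjusted p = 1.98e-03 and 3.07e-03).

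Of 8 listed paraspeckle proteins, held by 9 entries, 5 entries rose and 3 fell in KDAC8H143A, and 2 rose and 4 fell with each inhibitor. MATR3 stood on both sides in KDAC8H143A, since the entry ENSG00000280987 rose (log2 fold change 1.95 ± 0.20, adjusted p = 7.83e-06) and ENSG00000015479 fell (−1.37 ± 0.14, adjusted p = 6.72e-06). In that order, their means were 27.4 and 298 CPM in WT cells and 102 and 112 CPM in KDAC8H143A. The same gene name is thus counted as a rise and as a fall, and the sum of its entries was not tested. TARDBP, an RNA-binding protein, rose with Tubastatin A (0.67 ± 0.05, adjusted p = 1.24e-09) and PCI-34051 (0.62 ± 0.05, adjusted p = 1.86e-08). Of 8 nuclear speckle proteins, 4 rose and 0 fell in KDAC8H143A, 1 rose and 2 fell with Tubastatin A, and 0 rose and 6 fell with PCI-34051. SRRM2, a scaffold of speckles, rose in KDAC8H143A (1.48 ± 0.15, adjusted p = 6.34e-06) and fell with Tubastatin A (−0.30 ± 0.05, adjusted p = 4.06e-05) and PCI-34051 (−0.23 ± 0.07, adjusted p = 8.76e-03).

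Of 9 proteins of the U3 particle, 3 rose and 1 fell in KDAC8H143A, while 0 rose and 6 fell with each inhibitor. Over all genes 58.5% were called in KDAC8H143A, above the 4 of 9 here, and 28.6% and 25.6% were called lower with Tubastatin A and PCI-34051. The median log2 fold change of the list was 0.14, −0.33 and −0.44. FBL, the methyltransferase of box C/D particles, and RRP9 rose in KDAC8H143A (log2 fold change 0.74 ± 0.13 and 0.83 ± 0.16, adjusted p = 2.89e-04 and 6.32e-04). NOP56 and NOP58, core proteins of the same particles, fell with Tubastatin A (−0.84 ± 0.05 and −0.68 ± 0.05, adjusted p = 1.18e-11 and 8.13e-10) and with PCI-34051 (−0.78 ± 0.05 and −0.80 ± 0.06, adjusted p = 1.42e-09 and 5.77e-09). In KDAC6H611A, where SNORD3A did not pass the test, NOP56 and NOP58 fell too (−0.50 ± 0.09 and −0.37 ± 0.09, adjusted p = 1.26e-03 and 8.13e-03).

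Of 21 factors of polymerase III and small RNA promoters, 5 rose and 8 fell in KDAC8H143A, 2 rose and 7 fell with Tubastatin A, and 1 rose and 7 fell with PCI-34051. These counts were near or below the 58.5%, 57.9% and 51.1% of all genes called in these comparisons, and the median log2 fold change was −0.18, −0.0071 and −0.0050. SNAPC4, a subunit of the complex that binds small RNA promoters, rose in KDAC8H143A (1.93 ± 0.28, adjusted p = 9.12e-05). It fell with Tubastatin A (−0.87 ± 0.07, adjusted p = 2.32e-09) and PCI-34051 (−0.70 ± 0.07, adjusted p = 2.91e-07). POLR3E, a polymerase III subunit, fell with Tubastatin A (−0.79 ± 0.06, adjusted p = 3.07e-10) and PCI-34051 (−0.70 ± 0.06, adjusted p = 5.18e-08). Of 8 RNA maturation and decay proteins, 1 rose and 3 fell in KDAC8H143A and 1 rose and 5 fell with each inhibitor, among them EXOSC10, a nuclear exosome nuclease (−0.63 ± 0.04 with Tubastatin A, adjusted p = 2.07e-10). Of 28 other small structural RNA genes, 26 were found on 31 entries and 8 entries were tested: 2 rose and 4 fell in KDAC8H143A, 1 rose and 5 fell with Tubastatin A, and 0 rose and 5 fell with PCI-34051. These counts include RN7SL3, SNORD3B-1 and SNORD3B-2, already described above. SNORD3B-1 and SNORD3B-2 are among the falls in each comparison. RN7SL3 is among the falls in KDAC8H143A and is the rise with Tubastatin A. Of 10 other long nuclear noncoding RNA genes, 9 were found and 8 were tested, and 0 rose and 4 fell in KDAC8H143A, 0 rose and 3 fell with Tubastatin A and 1 rose and 2 fell with PCI-34051. OIP5-AS1 fell in KDAC8H143A (−1.45 ± 0.24, adjusted p = 2.21e-04) and SNHG1, a host of small nucleolar RNAs, fell with both inhibitors (−0.49 ± 0.06 and −0.44 ± 0.06, adjusted p = 5.23e-07 and 1.19e-05).

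The comparisons with WT share the WT libraries. KDAC8H143A had 2 higher and 4 lower of 10 tested, where 58.5% of all genes were called (31.6% higher, 26.9% lower). Tubastatin A had 2 higher and 7 lower, against 57.9% of all genes (29.3% higher, 28.6% lower), and PCI-34051 also had 2 higher and 7 lower, against 51.1% (25.5% higher, 25.6% lower). The share called in KDAC8H143A was near that of all genes. One fit over all 6 groups ended 4 Tubastatin A calls: RN7SK, RN7SL1, the short RPPH1 entry and NEAT1 (edgeR adjusted p = 0.0504, 0.0407, 0.0851 and 0.134). It also ended the PCI-34051 call of NEAT1 (adjusted p = 0.0388). Over all genes that fit called 4607 with Tubastatin A and 4346 with PCI-34051, of 18480 tested. Against TMM, scaling by the total count moved the middle log2 change over all genes tested from 0.08 to 0.36 in KDAC8H143A and from near 0 to 0.35 and 0.38 with Tubastatin A and PCI-34051. In KDAC6H216A 0 of 10 were called by edgeR, against 0.834% of all genes (0.214% higher, 0.621% lower). DESeq2 called 0 of them, where it called 367 of 14501 genes, and 0 had an unadjusted edgeR p under 0.05. Without replicate 1 of that line 5 of 10 were called, all lower, against 26.1% of all genes: MALAT1, NEAT1, SNORD3A and both RN7SL1 entries. In KDAC6H611A 0 of 10 were called by edgeR, against 12.3% of all genes (6.08% higher, 6.24% lower). DESeq2 called 3 (RN7SK, the current RMRP entry and the short RPPH1 entry), where it called 2333 of 14726 genes. An unadjusted edgeR p under 0.05 was found for 7, but the share of all genes at that level was not taken, so the 7 cannot be judged against it.

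**Figure D4:**
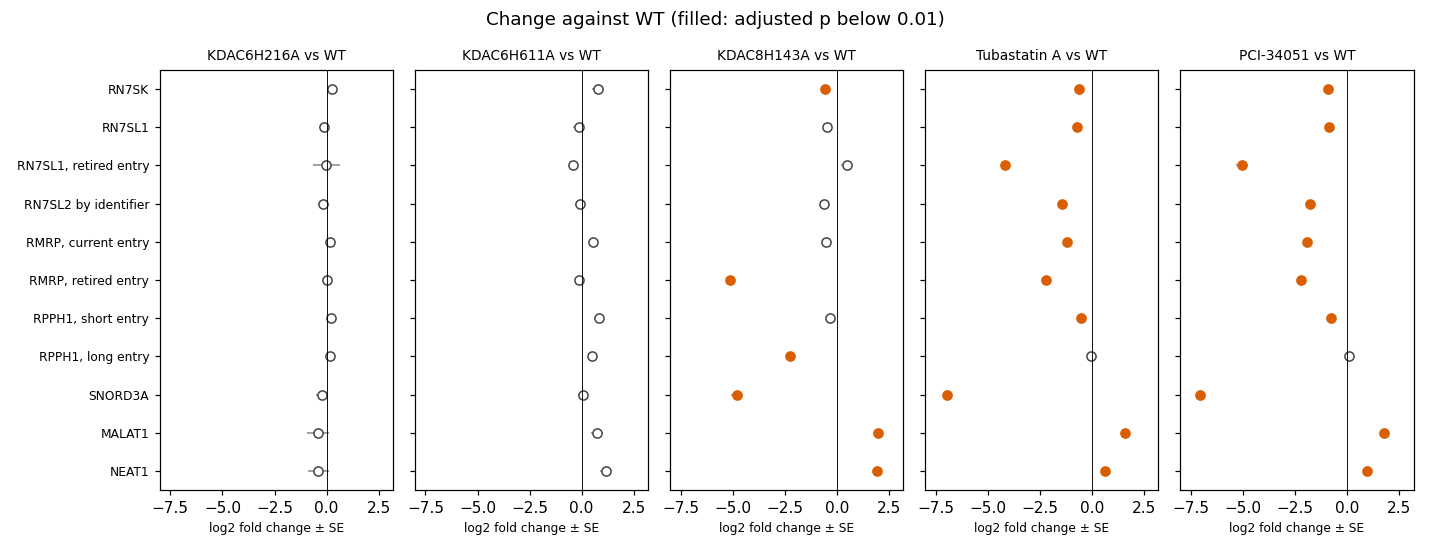
Log2 fold change against WT (horizontal axis, ± SE) of 10 entries and RN7SL2 by identifier in the 5 comparisons with WT, filled where the edgeR adjusted p was below 0.01. SNORD3A lies farthest to the left with both inhibitors (−6.96 and −7.04), and MALAT1 and NEAT1 lie to the right in KDAC8H143A and both inhibitor groups.

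The inhibitors were given at unequal doses, so dose and compound cannot be told apart between them. Tubastatin A against PCI-34051 gave 1 higher and 2 lower of 10 entries, where 5.65% of all genes were called (3.45% higher, 2.19% lower). RN7SL1 was 1.13-fold higher with Tubastatin A (adjusted p = 5.29e-04), MALAT1 1.17-fold lower (adjusted p = 6.86e-03) and NEAT1 1.24-fold lower (adjusted p = 2.49e-03). All 3 calls were lost in one fit over all 6 groups (adjusted p = 0.996 each), where 7 of 18480 genes were called in all. Those of NEAT1 and MALAT1 were also lost with DESeq2 (adjusted p = 0.0247 and 0.0857), where 1410 of 18410 genes were called. The RN7SL1 call was also lost without PCI-34051 replicate 1 (adjusted p = 0.0169). The NEAT1 call was lost without Tubastatin A replicate 1 or 3 or PCI-34051 replicate 1 or 3 (adjusted p = 0.0156, 0.0282, 0.0194 and 0.0109), and the MALAT1 call without Tubastatin A replicate 2 or 3 or PCI-34051 replicate 1 or 3 (adjusted p = 0.0314, 0.0571, 0.0287 and 0.0208). SNORD3A did not pass the test (0.08 ± 0.14, adjusted p = 0.750). Without PCI-34051 replicate 3, RN7SK, the current RMRP entry and the long RPPH1 entry passed (log2 fold change 0.42, 1.07 and −0.34, adjusted p = 6.91e-04, 2.61e-03 and 9.40e-04). KDAC6H611A against KDAC6H216A gave 0 of 10 by edgeR, against 9.93% of all genes (4.61% higher, 5.31% lower). DESeq2 called 1, where it called 2493 of 14961 genes. An unadjusted edgeR p under 0.05 was found for 2, and the share of all genes at that level was not taken. Without KDAC6H216A replicate 1 and KDAC6H611A replicate 4, MALAT1 and NEAT1 were 4.48-fold and 6.02-fold higher in KDAC6H611A (adjusted p = 4.60e-03 and 2.86e-03). PCI-34051 against KDAC8H143A gave 2 higher (the retired RMRP and long RPPH1 entries, 8.58-fold and 5.97-fold) and 4 lower of 10, against 58.2% of all genes (30.3% higher, 27.9% lower). Of the 4, the current RMRP entry was lost without PCI-34051 replicate 1 (adjusted p = 0.0134) and with both RMRP entries summed (log2 fold change −0.78, adjusted p = 0.0139), and NEAT1 in one fit over all 6 groups (adjusted p = 0.0609).

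Ratios within a library do not depend on the scaling. The ratio of RN7SL2 by identifier to RN7SL1 ran from 1.04 to 1.12 in WT cells, 0.62 to 0.70 with Tubastatin A and 0.474 to 0.681 with PCI-34051, with no overlap. NEAT1 to MALAT1 ran from 0.444 to 0.513 in WT cells, and from 0.238 to 0.265 and 0.257 to 0.280 with Tubastatin A and PCI-34051, also with no overlap, while KDAC8H143A (0.389 to 0.576) covered the WT range. RMRP to RPPH1, each summed, ran from 1.18 to 1.61 in WT cells, 0.593 to 0.892 with Tubastatin A and 0.425 to 0.714 with PCI-34051. RN7SK to the sum of RN7SL1 and RN7SL2 by identifier ran from 0.313 to 0.376 in WT cells. It ran from 0.418 to 0.477 in KDAC6H216A and 0.562 to 0.651 in KDAC6H611A, all apart. This ratio was also above the WT range with Tubastatin A (0.418 to 0.460) and PCI-34051 (0.392 to 0.496). KDAC8H143A (0.203 to 0.517) covered the WT range. In the two-sided exact permutation test on the log2 ratio, 20 comparisons were made. The smallest p possible was 0.0286 for 4 against 4 and 0.0571 for 3 against 4, and the smallest Benjamini-Hochberg adjusted p was 0.0879, so none of the 20 passed 0.05 and the design could not have passed it for the inhibitors.

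**Figure D5:**
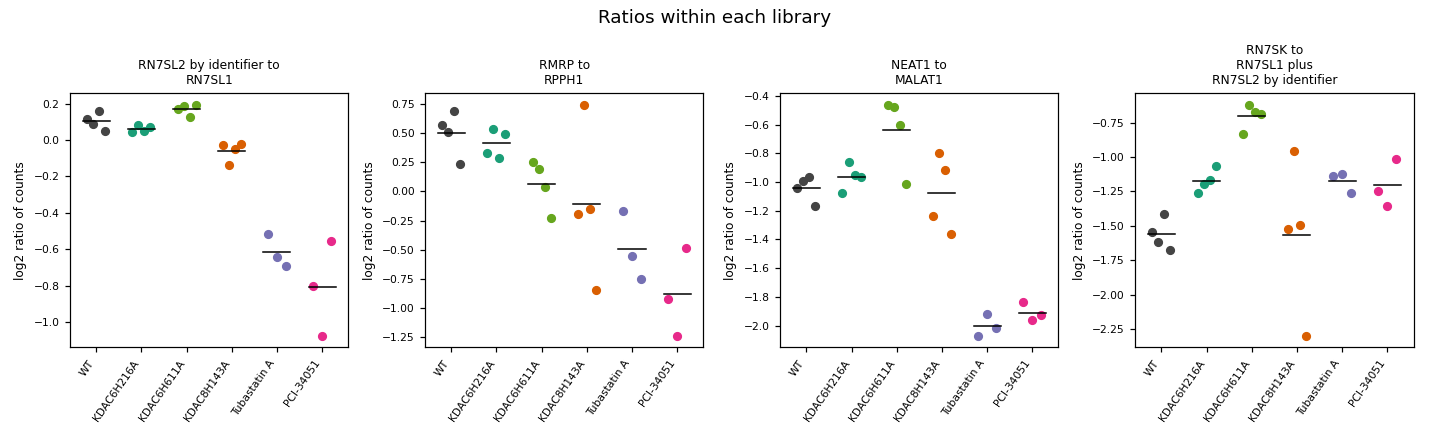
Log2 ratio of counts within each library for 4 pairs of RNAs, 1 point per library with a bar at the group mean. RN7SK against 7SL is highest in KDAC6H611A, and NEAT1 against MALAT1 is lowest in both inhibitor groups.

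For each entry the genes with the most similar level over the 22 libraries were taken among 15624 genes, as a description, since the libraries share groups and scaling. SNORD3A went with SNORA73A and SNORA73B (Pearson r = 0.985 and 0.980 on log2 CPM), both small nucleolar RNAs, and the current RMRP entry with SNORA73B and SCARNA7 (0.938 and 0.937). The retired RMRP entry went with SCARNA10 and PNPT1 (both about 0.977), and the long RPPH1 entry with AC104389.28 and OR51B4 (both 0.977). RN7SK and the short RPPH1 entry shared ZNF595 (0.930 and 0.889), with LSM8 (0.906) and RP1-261G23.7 (0.869) next. RN7SL1 went with RSRC2 and ZNF131 (0.901 and 0.844), and its retired entry with SNORD17 and RP1-76C18.1 (0.963 and 0.942). MALAT1 went with STX16 and RBM25 (0.980 and 0.956), and NEAT1 with TAMM41 and GS1-124K5.11 (0.961 and 0.955).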

How the data were processed

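RNA-seq was examined in 22 HT1080 libraries of 6 groups. The authors depleted rRNA, sequenced paired ends, trimmed reads with Trimmomatic 0.39, aligned them to GRCh38 with Bowtie2 2.4.5 and deposited RSEM 1.3.3 expected counts per gene, unscaled for depth or length. The annotation release is not stated. For the fits they were rounded. Of 60675 identifiers, 56558 matched GENCODE release 44. CPM are on TMM-scaled totals of all 22 libraries. Each comparison was a 2-group edgeR 4.0.16 quasi-likelihood fit in R 4.3.3 (TMM, filterByExpr, Benjamini-Hochberg over all genes tested, threshold 0.01), and SE is the log2 fold change over the root of F. DESeq2 1.42.0 was an alternative. The model was tested on simulated counts. Total counts per library ran from 5248960 to 29862658. The members and lists were chosen with earlier results of these data known. Named genes are drawn from at most 2 called genes of largest change per list and comparison, with at least 1 CPM, and the 2 genes most correlated with each entry. Ratios used exact permutation tests. Replicates were separate samples per the methods. Added after the data were seen: sums over entries of 1 RNA, and values in 2 libraries low in mitochondrial rRNA. The 7SL sequences are not reported here.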

Additional observations from a re-analysis of the deposited data

Results flagged for a closer look

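In KDAC6H216A replicate 1 of 4, 3 levels stood apart from the other replicates by Dixon's test at its 95% critical value: the retired RN7SL1 entry at 634 CPM, MALAT1 at 5470 CPM and NEAT1 at 2591 CPM. In all, 40 groups of 4 libraries were tested this way, and chance marks about 1 in 20. The 3 levels come from the same library, which also had 0.195% mitochondrial rRNA against 13.1% to 15.1% in the others, and the part of this in the levels was not tested. Between Tubastatin A and PCI-34051, the difference itself passed edgeR's test for RN7SL1 (log2 fold change 0.17), MALAT1 (−0.22) and NEAT1 (−0.31), at unequal doses. All 3 calls were lost in one fit over all 6 groups (adjusted p = 0.996 each), which called 7 of 18480 genes between the inhibitors. Those of MALAT1 and NEAT1 were also lost with DESeq2 (0.0857 and 0.0247).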

How the results depend on the processing

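The falls of SNORD3A and the retired RMRP entry and the rise of MALAT1 in KDAC8H143A and both inhibitor comparisons with WT kept their direction and call under each alternative run. The count of members called moved by more than 1.5 times as follows. For KDAC6H611A against WT (0) it was 3 with DESeq2, 1 with upper quartile factors, 1 without mitochondrial rRNA, 1 with no filter, 2 with 1 fit over 6 groups and 4 at adjusted p below 0.05. Calls over all genes at that looser level were not counted, so the 4 cannot be judged against them. Over all genes tested, KDAC6H611A against WT went from 1814 calls to 2333 (DESeq2), 1901 (upper quartile), 1851 (without mitochondrial rRNA), 2467 (no filter) and 2095 (6 groups). For Tubastatin A against WT (9) the count of members was 5 with 1 fit over 6 groups. Calls over all genes fell there from 8821 of 15247 to 4607 of 18480. For Tubastatin A against PCI-34051 (3) the count of members was 1 with DESeq2, 8 with no filter and 0 with 1 fit over 6 groups. It was 5 at adjusted p below 0.05, a level at which calls over all genes were not counted here either. Calls over all genes went from 1040 of 18410 to 1410 of 18410 (DESeq2), 1890 of 33103 (no filter) and 7 of 18480 (6 groups). For KDAC6H611A against KDAC6H216A (0) the count of members was 1 with DESeq2 and 1 with 1 fit over 6 groups. It was 2 without both libraries low in mitochondrial rRNA. Calls over all genes went from 1485 to 2493, 3381 and 2093 in these runs. For PCI-34051 against KDAC8H143A (6 entries) the count was 2 RNAs with entries summed, a smaller number tested. Calls over all genes went from 10790 of 18542 to 10780 of 18535. By smaller steps, the 6 called in KDAC8H143A against WT became 7 with DESeq2, no filter or no mitochondrial rRNA (the current RMRP entry added) and 5 with the total count or at least 10 counts (RN7SK lost), and the 9 with PCI-34051 became 10 with the total count or no filter (the long RPPH1 entry added) and 8 with 1 fit over 6 groups (NEAT1 lost). Over all genes, 9421 calls in KDAC8H143A became 9661 (DESeq2), 10054 (no filter), 9350 (no mitochondrial rRNA), 8976 (total count) and 7693 (at least 10 counts). With PCI-34051, 7836 became 9370 (total count), 8741 (no filter) and 4346 (6 groups). Leaving out 1 library at a time gave 0 to 5 members called for KDAC6H216A against WT and 0 to 3 for KDAC6H611A. It gave 5 to 8 for KDAC8H143A against WT, 0 to 4 between the inhibitors and 0 to 3 between the KDAC6 lines. Over all genes these fits called 28 to 3814, 1122 to 2908, 8188 to 10523, 407 to 1161 and 772 to 3043, in the same order. The members' share of counts became 10.9% in WT and 13.9% in KDAC6H611A without mitochondrial rRNA, and per 100 protein-coding counts 13.5 in WT, 18.3 in KDAC6H611A and 9.33 in KDAC8H143A, against 7.59 for Tubastatin A and 7.10 for PCI-34051.

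Signs turned only for log2 fold changes that had not passed the test, and the cause was not tested. In KDAC6H216A against WT, the retired RMRP entry became −0.012 (upper quartile) and −0.0080 (protein-coding scaling), RN7SL1 became 0.076 (total count), and its retired entry 0.0014 (upper quartile), 0.25 (total count) and 0.0041 (at least 10 counts). With Tubastatin A against WT the long RPPH1 entry became 0.31 (total count), 0.047 (no filter), 0.067 (6 groups) and 0.028 (replicate block). Between the inhibitors the retired RMRP entry became −0.0058 (upper quartile), −0.023 (total count) and −0.0038 (protein-coding scaling). Between the KDAC6 lines RN7SL1 became 0.059 (upper quartile), 0.032 (entries summed) and 0.33 (both low libraries out), and its retired entry 0.29 (replicate block) and 0.76 (both low libraries out). For PCI-34051 against KDAC8H143A MALAT1 became −0.019 (DESeq2), −0.18 (upper quartile), −0.051 (total count), −0.19 (protein-coding scaling), −0.049 (at least 10 counts), −0.0073 (6 groups) and −0.023 (replicate block). With 1 library left out, the values that turned sign were, in KDAC6H216A against WT, RN7SK at −0.0044, the current RMRP entry at −0.017, the retired RMRP entry from −0.056 to 0.084 and the retired RN7SL1 entry from −1.33 to 0.31. In KDAC6H611A against WT they were SNORD3A from −0.13 to 0.22 and the retired RMRP entry from −0.26 to 0.013. The long RPPH1 entry ran from −0.12 to 0.070 with Tubastatin A and −0.052 to 0.30 with PCI-34051. Between the inhibitors SNORD3A ran from −0.20 to 0.24, the retired RMRP entry from −0.15 to 0.11 and the long RPPH1 entry from −0.34 to 0.011. Between the KDAC6 lines RN7SL1 ran from −0.19 to 0.22 and its retired entry from −0.77 to 0.87, and for PCI-34051 against KDAC8H143A MALAT1 ran from −0.023 to 0.068.

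Replicates of unlike groups were taken as unpaired, since in no comparison did every same-numbered pair correlate above 0.1. Single pairs reached 0.475 (KDAC6H611A against KDAC6H216A, replicate 3) and 0.269 (KDAC6H216A against WT, replicate 1). Shared handling of some pairs was not tested. With the replicate number as a block, 7 members were called in KDAC8H143A against WT (the current RMRP entry was added, −0.53, adjusted p = 5.96e-03) and 4 between the inhibitors (the short RPPH1 entry was added, 0.24, adjusted p = 5.14e-03), and no call of a member was lost. Over all genes, calls went down in these fits, from 9421 to 9194 of 16101 and from 1040 to 763 of 18410.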
